A study of Mus musculus with 56 samples.

Results

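The genes described here are the 4 ELAV-like genes Elavl1, Elavl2, Elavl3 and Elavl4 and the TIA genes Tia1 and Tial1, 6 of the 23261 gene names in the deposited tables. They were taken by name in each gene table and each skipped-exon table. The group was chosen by measured values seen earlier, namely the differences between genotypes of Tial1 in the cortex and of Elavl3 and Tia1 in the testis. Knockout against wild type in those 2 tissues is therefore given as a description, with no test, and supports nothing. The study asked how loss of FMRP, the RNA-binding protein encoded by Fmr1, acts on splicing and on the splicing factor MBNL1. Of its 56 mouse RNA-seq samples in 19 groups, 3 Fmr1 knockout (KO) and 3 wild-type (WT) samples came from each of 3 brain regions (cortex, hippocampus and cerebellum) and from liver, muscle and testis. The neuroblastoma line N2a, from mouse, was treated with an siRNA that targets Fmr1 (siFmr1, in 3 samples) or with one that targets nothing (siNT, in 2 samples). An siRNA is a small interfering RNA that lowers the mRNA it matches. In a further N2a experiment an siRNA and a plasmid were transfected together, with 3 samples per group: siNT, siFmr1 or siMbnl1 with the control plasmid pcDNA, siFmr1 with a nuclear form of MBNL1 (nMBNL1), and siMbnl1 with a cytosolic form (cMBNL1), both forms carrying a FLAG tag. The labels gave neither the age, sex or strain of the mice, nor whether several tissues came from the same mouse, nor whether replicates of the cell line were separate cultures. The p-values therefore measure the spread between these samples, which may be technical.

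ELAV-like proteins, also called Hu proteins, bind AU-rich and U-rich stretches of RNA through RNA-recognition motifs, and are known for stabilising mRNAs and for guiding splicing and polyadenylation. Elavl1 (HuR) is made in most cell types, whereas Elavl2 (HuB), Elavl3 (HuC) and Elavl4 (HuD) are known as neuronal proteins, with Elavl2 also made in germ cells. TIA1 and TIAL1 (also called TIAR) bind U-rich sequence downstream of weak 5′ splice sites, where they help to recruit the U1 small nuclear ribonucleoprotein (snRNP), and in the cytoplasm they repress translation and assemble into stress granules.

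The skipped exons that varied in these genes were short. Elavl2, Elavl3 and Elavl4 each hold a 39-base exon of 13 codons, the sixth of 7 exons in the transcripts Elavl2-201, Elavl3-201 and Elavl4-201, in the coding part that links the second and the last RNA-recognition motif. It is shown because the Elavl2 copy carried the skipped-exon calls given further on, while the other copies were included nearly throughout in N2a cells. The sequences are those of the coding strand, read from the reference transcripts of GENCODE M21 on GRCm38, and capitals mark bases identical in all 3 exons.
Elavl2, chr4:91254141-91254179, minus strand: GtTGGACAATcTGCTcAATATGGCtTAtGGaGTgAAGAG
Elavl3, chr9:22024674-22024712, minus strand: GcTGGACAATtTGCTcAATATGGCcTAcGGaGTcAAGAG
Elavl4, chr4:110209740-110209778, minus strand: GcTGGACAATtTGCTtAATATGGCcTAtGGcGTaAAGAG
The 3 exons shared 32 of 39 bases. Pairwise identity was 87.2% for Elavl2 and Elavl3, 84.6% for Elavl2 and Elavl4, and 89.7% for Elavl3 and Elavl4. The exon lies in the coding sequence of 6 of 12 protein-coding transcripts of Elavl2, 2 of 3 of Elavl3 and 6 of 10 of Elavl4.

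The exon after it begins at either of 2 splice acceptors in Elavl2 and in Elavl4, and rMATS, the program behind the deposited splicing tables, listed the skipping event separately for each. For Elavl2 it also listed the event separately by the exon that comes before, and values are those of the form that follows the 226-base exon unless another is named. These sequences join the last 12 bases of the 39-base exon to the start of the next exon, with capitals for bases present only when the earlier acceptor is used, 3 in Elavl2 and 42 in Elavl4.
Elavl2, later acceptor: tggagtgaagaggttttctccaat
Elavl2, earlier acceptor: tggagtgaagagTAGgttttctccaat
Elavl4, later acceptor: tggcgtaaagaggttctccccaat
Elavl4, earlier acceptor: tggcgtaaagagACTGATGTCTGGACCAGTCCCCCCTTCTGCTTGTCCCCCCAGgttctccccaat
Tia1 has a 33-base exon of 11 codons, the fifth of 13 exons in the transcript Tia1-202 and part of the coding sequence in 2 of 5 protein-coding transcripts, whose use separates the longer from the shorter TIA1 protein. It is shown because it was the most variable exon of the TIA genes, in capitals between 12 bases of each neighbouring exon.
Tia1, chr6:86419101-86419133, plus strand: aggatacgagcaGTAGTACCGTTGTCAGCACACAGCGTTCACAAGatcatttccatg

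Total counts per sample lay between 26264368 and 41384652 in the brain and between 13230785 and 16268865 in the other count tables, and totals of the normalized co-transfection values lay between 31955037 and 33273189. Fmr1, the targeted gene, had lower TPM in each KO sample than in each WT sample of 5 tissues (TPM scales reads by gene length and sequencing depth). KO means were 14.6 to 19.9 TPM in the brain against 55.1 to 75.2 TPM in WT. In muscle the TPM overlapped, with a mean of 3.83 in KO and 5.00 in WT (adjusted p = 0.0734, edgeR quasi-likelihood test). In the co-transfection experiment mean normalized Fmr1 fell from 3093 with siNT to 594 with siFmr1 and pcDNA, and mean Mbnl1 fell from 4396 with siNT to 1485 with siMbnl1 and pcDNA. The first N2a experiment separated less clearly, since Fmr1 was at 5.66 and 34.0 TPM in its siNT samples and between 0.7 and 6.62 TPM in its siFmr1 samples. Defining markers matched the tissue labels: the summed level of the 5 neuronal markers was 4822 to 8152 TPM in WT brain, the 4 hepatocyte markers 71155 to 84074 TPM in WT liver, the 4 skeletal muscle markers 115542 to 124043 TPM in WT muscle, and the 4 spermatid markers 58247 to 62241 TPM in WT testis. Hippocampal libraries stood apart in the hepatocyte list, of which 2 of 4 genes, with Ttr among them, are in the brain table: its sum ran from 19 to 10299 TPM in WT and from 28.2 to 11141 TPM in KO. With any 1 hippocampal library left out, 0 members were called between genotypes there, as with all of them.

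In WT tissues the neuronal genes of the family led in the brain and the widely made genes led elsewhere. Since TPM is scaled by gene length, genes can be set side by side, as far as the length used holds, but the tables of different tissues were normalized separately and were not tested against each other. Elavl3 was the highest of the 6 genes in all 3 brain regions, at 129.96, 137 and 134 TPM in the cortex, 139, 134 and 136 TPM in the hippocampus and 207, 202 and 204 TPM in the cerebellum. Those values did not overlap with any other member's in the same region. Elavl4 was next in the cortex and cerebellum (94.9 to 102 and 82.1 to 97.4 TPM), and Elavl2 in the hippocampus (63.7 to 72.9 TPM against 47.9 to 60.6 TPM for Elavl4). The length behind the deposited TPM is not given in the sources used here, and with counts scaled by the length of all annotated exons Elavl4 stood above Elavl2 in the hippocampus, and Elavl1 above Tia1 in the 3 brain regions. In the cerebellum Elavl2 was instead the lowest of the 6 at 21.1 to 25.4 TPM. In the testis Elavl2, Elavl3 and Elavl4 stayed between 1.10 and 3.54 TPM, and none of the 3 genes is listed in the liver and muscle tables.

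Elavl1 was close to equal in the 3 brain regions, at 34.2 to 40.3 TPM over the 9 WT brain samples, and was 25.6 to 27.1 TPM in the testis, 9.11 to 12.8 TPM in the liver and 7.36 to 11.8 TPM in muscle. In the testis it was the highest member, and its samples did not overlap with those of Tial1 (17.9 to 19.4 TPM). Tial1 exceeded Tia1 in the mean of every tissue. The Tial1 and Tia1 samples overlapped only in the cortex (47.7 to 52.9 against 40.1 to 50.8 TPM). Tial1 was the highest member in muscle (16.5 to 17.6 TPM) and in liver (11.5 to 19.9 TPM), although in liver its samples overlapped with those of Elavl1. Tia1 fell to 1.72 to 2.36 TPM in liver. Neighbours in the order that could not be told apart by their samples were Elavl4 and Tial1 in the cerebellum, Elavl1 and Tia1 in muscle, and Elavl3 and Elavl4 in the testis.

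**Figure D1:**
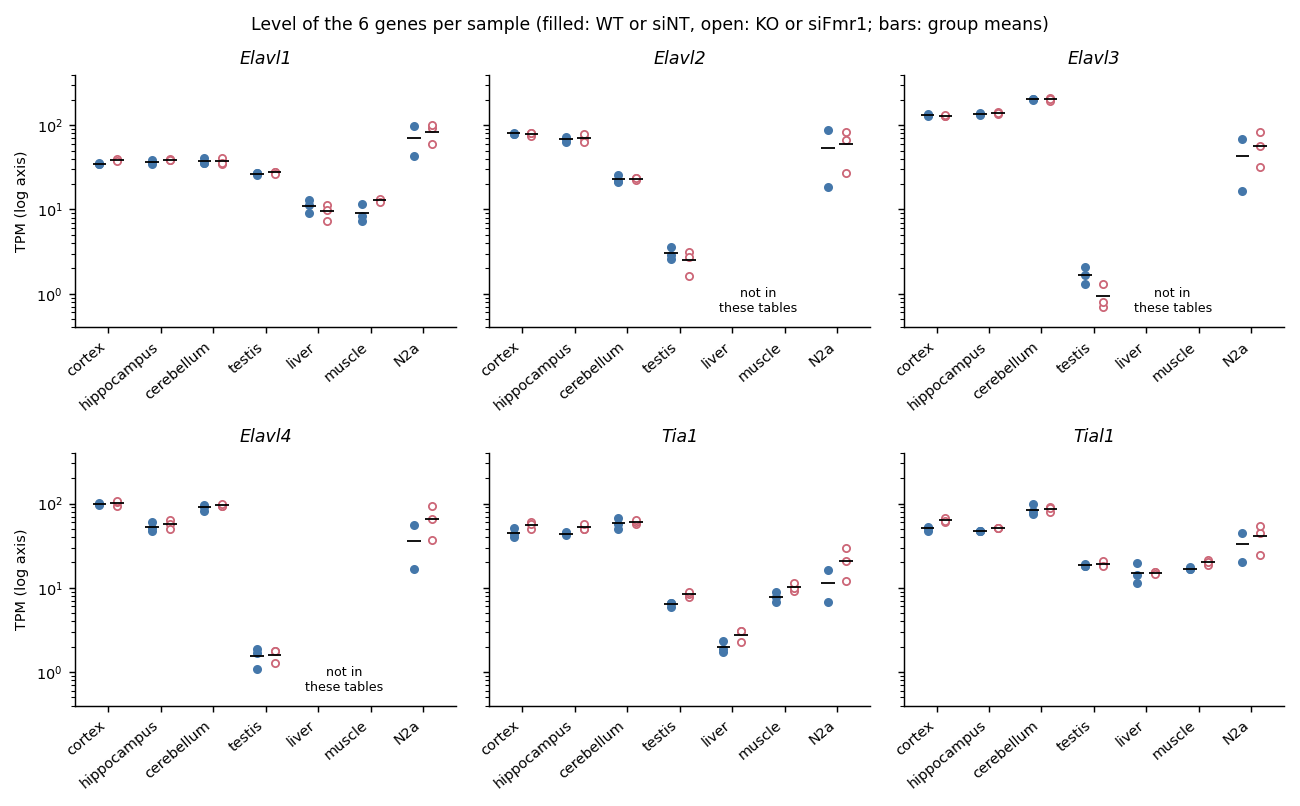
TPM on a log axis of each of the 6 genes in every sample of the 6 tissues and of the first N2a experiment, with WT or siNT as filled and KO or siFmr1 as open circles and group means as bars. Elavl3 stands at 127.55 TPM or more in each brain sample, Elavl2, Elavl3 and Elavl4 stay at 3.54 TPM or less in the testis, and the N2a samples of 1 group spread widely.

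Between brain regions of WT mice Elavl2 had the largest difference among the members in both comparisons with the cerebellum, and Elavl4 in that of hippocampus with cortex. Counts were compared with the edgeR quasi-likelihood test with Benjamini-Hochberg adjustment over all genes tested, and a gene was called at an adjusted p under 0.05. Such calls were common: they took 41.8% of genes for hippocampus against cortex, 67.2% for cerebellum against cortex and 69.4% for cerebellum against hippocampus, so the counts of 2, 4 and 5 called members of 6 are read against that background. Elavl2 was 78.3, 81.5 and 79.8 TPM in the cortex, 72.9, 68.1 and 63.7 TPM in the hippocampus and 21.7, 21.1 and 25.4 TPM in the cerebellum. All cerebellar samples lay far below those of the other regions. The log2 fold change of Elavl2 was -1.89 ± 0.07 (SE) for cerebellum against cortex (adjusted p = 1.83e-09) and -1.66 ± 0.08 for cerebellum against hippocampus (adjusted p = 1.07e-07). Its smaller difference between hippocampus and cortex, -0.20 ± 0.06 (adjusted p = 0.0273), was lost when replicate 2 of the WT cortex (adjusted p = 0.0812), replicate 2 of the WT hippocampus (0.0852) or replicate 3 of the WT hippocampus (0.11) was left out.

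Elavl4 was lowest in the hippocampus, at 60.6, 51.4 and 47.9 TPM, against 97.6, 102 and 94.9 TPM in the cortex and 91.3, 82.1 and 97.4 TPM in the cerebellum. The hippocampal samples did not overlap with either other region. The log2 fold change was -0.86 ± 0.09 for hippocampus against cortex (adjusted p = 0.000113), 0.65 ± 0.09 for cerebellum against hippocampus (adjusted p = 0.00019) and -0.24 ± 0.07 for cerebellum against cortex (adjusted p = 0.00838). Elavl3 was higher in the cerebellum than in both other regions, by 0.48 ± 0.05 over cortex (adjusted p = 1.23e-05) and 0.46 ± 0.04 over hippocampus (adjusted p = 8.85e-06), and did not pass the test between hippocampus and cortex. Tial1 was 81.0, 75.1 and 97.5 TPM in the cerebellum and at most 52.9 TPM in the other regions, higher by 0.60 ± 0.09 over cortex (adjusted p = 9.25e-05) and 0.71 ± 0.08 over hippocampus (adjusted p = 5.21e-05). Tia1 passed only for cerebellum against hippocampus (0.29 ± 0.09, adjusted p = 0.0201). It missed the threshold for cerebellum against cortex with edgeR (0.25 ± 0.11, adjusted p = 0.0584), where DESeq2 gave 0.0465, and passed it without replicate 2 of the WT cerebellum (0.0158) or of the WT cortex (0.0239). Elavl1 passed in none of the 3 comparisons, with log2 fold changes between -0.09 and 0.09. The neuronal markers summed to 7350 to 8152 TPM in WT cortex, 4822 to 5330 TPM in WT hippocampus and 6468 to 6726 TPM in WT cerebellum. The astrocyte markers summed to 647 to 749 TPM, 1037 to 1099 TPM and 1719 to 1810.2 TPM in the same order, highest where Elavl3 and Tial1 were highest, and the part of either list in these differences was not tested. In bulk tissue, fewer cells of a type and less RNA per cell cannot be told apart.

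In the cortex, 1 of the 2 contrasts known beforehand and described only, the TIA genes were higher and the neuronal ELAV-like genes close to equal. Tial1 was 47.7, 52.9 and 51.9 TPM in WT and 61.1, 66.5 and 62.6 TPM in KO. Every KO sample lay above every WT sample, and the log2 fold change was 0.30 ± 0.06. Tia1 was 40.1, 50.8 and 43.8 TPM in WT and 49.9, 59.9 and 57.3 TPM in KO, a log2 fold change of 0.29 ± 0.09, with 1 WT sample within the KO range. Elavl1 was 35.4, 35.1 and 34.2 TPM in WT and 38.7, 39.3 and 37.6 TPM in KO, without overlap, a log2 fold change of 0.13 ± 0.05. Elavl2 (-0.02 ± 0.05), Elavl3 (-0.06 ± 0.05) and Elavl4 (0.04 ± 0.06) differed by less than 0.10 on the log2 scale. On the depth-scaled counts (CPM) used for the fit, the 3 KO samples were all higher in 2 members and all lower in Elavl3; among all genes tested, 13.2% were higher and 12.4% lower in this way, and nothing is read from these counts. Of the marker lists, the blood gene in the table (1 of 2) was lower in KO cortex (383 to 393 TPM) than in WT cortex (433 to 550 TPM), and its part in these values was not tested.

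In the hippocampus all 6 members had a higher mean in KO, and none passed the test. Tia1 was 42.2, 45.7 and 44.4 TPM in WT and 49.5, 50.1 and 56.5 TPM in KO. Every KO sample was above every WT sample. The log2 fold change was 0.25 ± 0.06 (adjusted p = 0.181, edgeR quasi-likelihood test), while DESeq2 gave an adjusted p of 0.0164. Tial1 was 47.5, 47.7 and 47.8 TPM in WT and 51.3, 51.7 and 51.4 TPM in KO, again without overlap, with a log2 fold change of 0.12 ± 0.04 (adjusted p = 0.275, edgeR). Elavl1 also did not overlap on the CPM scale (0.09 ± 0.05, adjusted p = 0.464, edgeR). Non-overlap with higher KO values held for 3 of 6 members and for 9.9% of all genes tested, against 9.16% with lower KO values and 0 members. With edgeR 0.209% of genes were called. Among the 6 members edgeR called 0, DESeq2 called 1, and 2 were under an unadjusted p of 0.05 with edgeR. Of 14843 genes, DESeq2 called 260, and 1852 were under an unadjusted p of 0.05 with edgeR. The oligodendrocyte markers (4 of 4 in the table) summed to 4571 to 4789 TPM in KO and 5633 to 5952 TPM in WT hippocampus, without overlap, and their part in these values was not tested.

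In the cerebellum each member overlapped between genotypes, where 6.78% of all genes were higher and 7.77% lower in KO without overlap. Tia1 was 57.6, 49.97 and 67.8 TPM in WT and 56.8, 60.3 and 63.2 TPM in KO, and Tial1 was 81.0, 75.1 and 97.5 TPM in WT and 79.9, 92.2 and 88.1 TPM in KO. The spread within WT exceeded the difference between genotypes for both. Log2 fold changes of the 6 members lay between 0.01 and 0.09, with 0 members called by edgeR or DESeq2 and 0 at an unadjusted p under 0.05, against 0.226% of all genes called by edgeR. Of 14627 genes, 96 were called by DESeq2 and 1276 had an unadjusted p under 0.05 with edgeR. The genotype effect of Tia1 was larger in the hippocampus than in the cerebellum by 0.20 ± 0.13 (SE) on the log2 scale, which did not pass the edgeR interaction test (adjusted p = 0.971). No other member passed it either, with adjusted p-values from 0.984 to 0.9999.

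In the testis, the other contrast known beforehand and described only, Elavl3 was lower and Tia1 higher in KO. Elavl3 had raw counts of 67, 97 and 54 in WT and 28, 58 and 36 in KO, or 1.65, 2.10 and 1.32 TPM and 0.7, 1.29 and 0.8 TPM. The raw counts overlapped by 1 sample. The TPM ranges did not overlap, with the highest KO sample just below the lowest WT sample, and the log2 fold change was -0.85 ± 0.22. These counts are small, and the fold change ranged from -1.16 to -0.66 as single samples were left out. Tia1 was 6.6, 6.61 and 5.97 TPM in WT and 7.84, 8.53 and 8.86 TPM in KO, a log2 fold change of 0.42 ± 0.10 without overlap. Elavl2 (-0.25 ± 0.18), Elavl4 (0.07 ± 0.22), Elavl1 (0.06 ± 0.07) and Tial1 (0.05 ± 0.08) overlapped between genotypes. Non-overlap was found in 10.9% of all genes in the higher and 9.75% in the lower direction, beside 1 member each way, from which nothing is read. The neuronal markers in the testis table (2 of 5) summed to 28.6 to 32.4 TPM in KO and 32.8 to 45.4 TPM in WT, and the Leydig cell markers (4 of 4) to 2899 to 3247 TPM in KO and 3293 to 4260 TPM in WT, both without overlap. Their part in the Elavl3 and Tia1 values was not tested.

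In liver and muscle only Elavl1, Tia1 and Tial1 could be measured. In liver Tia1 was 1.72, 2.36 and 1.89 TPM in WT and 2.26, 3.06 and 3.04 TPM in KO. The lowest KO sample lay within the WT range, and the log2 fold change of 0.46 ± 0.20 did not pass the edgeR test (adjusted p = 0.422). Elavl1 (-0.26 ± 0.17) and Tial1 (-0.04 ± 0.17) did not pass it either, and 0.411% of all genes were called. In muscle all 3 genes had higher TPM in each KO sample than in each WT sample: Elavl1 7.36 to 11.8 in WT and 12.4 to 13.4 in KO, Tia1 6.78 to 8.83 and 9.18 to 11.4, and Tial1 16.5 to 17.6 and 18.5 to 21.4. The share of all genes without overlap in TPM was not counted, and nothing is read from the TPM of these 3 genes. On the TMM-scaled CPM used for the test, all 3 overlapped, while 16.2% of all genes were higher and 15.4% lower in KO without overlap. The log2 fold changes were 0.26 ± 0.15, 0.14 ± 0.12 and 0.02 ± 0.09, with adjusted p-values from 0.307 to 0.919, against 4.04% of genes called. In liver 1 member, Tia1, was under an unadjusted p of 0.05 with edgeR, beside 1365 of 11928 genes. In muscle there were 0 members, beside 3281 of 12688 genes. DESeq2 called 0 members in either tissue, beside 274 genes in liver and 1086 in muscle. The macrophage markers (4 of 4 in the table) summed to 28.1 to 34.0 TPM in KO muscle and 14.2 to 17.5 TPM in WT muscle, and their part in these values was not tested.

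Over the 6 tissues Tia1 was the member whose log2 fold change was above 0 in KO everywhere, from 0.06 in the cerebellum to 0.46 in liver, with the 2 tissues known beforehand among the 6. Tial1 and Elavl1 were above 0 in 5 of 6 tissues, Elavl4 in 4 of 4, and Elavl2 and Elavl3 in 2 of 4. No member was called in any of the 4 tested tissues with edgeR.

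**Figure D2:**
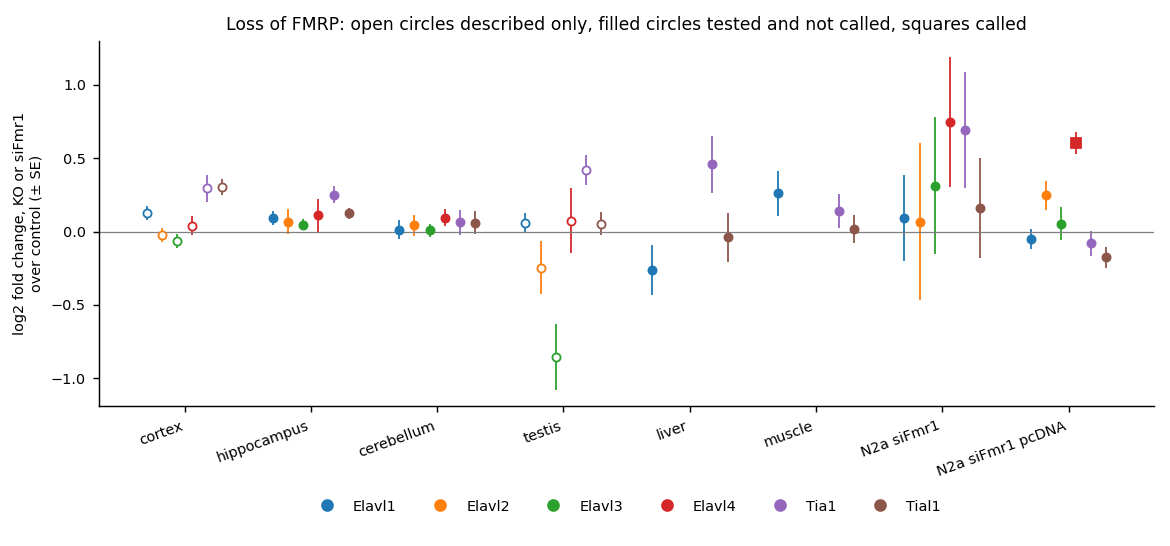
Log2 fold change (± SE) of each member for KO over WT in 6 tissues, siFmr1 over siNT in the first N2a experiment, and siFmr1 over siNT with pcDNA. Elavl4 in the co-transfection experiment (square, 0.61) is the one call. Tia1 lies above 0 in the 6 tissues and Elavl4 in the 4 that list it. Cortex and testis (open circles), with Elavl3 in the testis at -0.85, were known beforehand and are described only.

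In the first N2a experiment no member was called, and the samples within groups differed more than the groups did. Elavl4 was 64.8, 92.3 and 37.0 TPM with siFmr1 and 55.4 and 16.7 TPM with siNT. Elavl2 was 83.5, 66.4 and 27.4 TPM with siFmr1 and 88.2 and 18.5 TPM with siNT. The second siNT sample and the third siFmr1 sample were the lowest of their group for both genes and for Elavl1, Elavl3, Tia1 and Tial1. The largest log2 fold changes were 0.74 ± 0.44 for Elavl4 and 0.70 ± 0.40 for Tia1 (adjusted p = 0.9999 for both, edgeR). Of all genes 0% were called, and 47 of 12187 reached an unadjusted p under 0.05. No member was among these, and DESeq2 called 0 genes.

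In the co-transfection experiment the differences past the threshold concerned mainly Elavl4 and Tia1. Values were tested with limma on log2(value + 1) in a fit of all 15 samples, so fold changes are on that scale. Normalized Elavl4 was 3340.2, 3909 and 3316 with siNT, 5424, 5296 and 5312 with siFmr1 and pcDNA, and 2784, 2673 and 3039 with siMbnl1 and pcDNA. All siFmr1 samples lay above, and all siMbnl1 samples below, the siNT samples. Elavl4 rose by 0.61 ± 0.08 (SE, log2, adjusted p = 1.87e-05) with siFmr1, where 37.0% of all genes were called. It fell with siMbnl1, by a log2 fold change of -0.31 ± 0.08 (adjusted p = 0.00517), where 32.8% of all genes were called. That second difference missed the threshold when only the 2 groups compared were fitted (adjusted p = 0.0702), a fit whose spread is estimated from 6 samples. The direct comparison of siFmr1 with siMbnl1, which does not involve siNT, gave 0.92 ± 0.08 (adjusted p = 3.51e-07), where 35.3% of genes were called.

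Tia1 was 2349, 2029.8 and 1950.4 with siNT, 2014, 1956 and 1997 with siFmr1 and pcDNA, and 1411, 1270.0 and 1444 with siMbnl1 and pcDNA. The siMbnl1 samples lay below all others, whereas the siFmr1 samples lay within the siNT range. Tia1 fell with siMbnl1, by a log2 fold change of -0.61 ± 0.08 (adjusted p = 5.4e-05), or to 0.653 of the siNT level. With siFmr1 it was -0.08 ± 0.08 (adjusted p = 0.482), and siFmr1 exceeded siMbnl1 by 0.53 ± 0.08 (adjusted p = 0.000126). Its relative Tial1 did not follow: it was 5180.1, 4576 and 5137 with siNT, 4468, 4254 and 4442 with siFmr1 and 5305, 5729 and 4933 with siMbnl1. The siFmr1 samples were the lowest, all below siNT, but the log2 fold change of -0.18 ± 0.07 missed the threshold (adjusted p = 0.0624), and only the comparison of siFmr1 with siMbnl1 passed it, in the direction opposite to Tia1 (-0.28 ± 0.07, adjusted p = 0.00615). So 1 of 6 members was called for siFmr1 against siNT, 2 for siMbnl1 against siNT, and 3 for siFmr1 against siMbnl1, beside 37.0%, 32.8% and 35.3% of all genes.

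Elavl2 was 3977, 4788 and 3589 with siNT and 4856, 4687 and 5029 with siFmr1 and pcDNA, a log2 fold change of 0.25 ± 0.10 that missed the threshold (adjusted p = 0.0599). Elavl1 and Elavl3 did not pass the test for siFmr1 or siMbnl1 with pcDNA against siNT. Elavl3 with siNT ranged from 4184 to 6466 between replicates, and over all genes the median SD of log2 values within a group was 0.236 with siNT and from 0.0963 to 0.114 elsewhere. The second siNT sample was the highest of its group for Elavl1, Elavl2, Elavl3 and Elavl4. The Elavl2 value passed without replicate 1 of siFmr1 with nMBNL1 (0.0486), a group that enters only the shared estimate of the spread. Without the second siNT sample, Elavl2 (0.36, adjusted p = 0.00201) and Tial1 (-0.23, adjusted p = 0.00839) were also called for siFmr1 against siNT, and Elavl2 (0.30, adjusted p = 0.00922) for siMbnl1 against siNT. Summed neuronal markers (5 of 5 in the table) were 57046 to 58537 with siFmr1 and pcDNA, 43682 to 49460 with siMbnl1 and pcDNA and 44024 to 47091 with siNT, so they moved with Elavl4 for siFmr1, and their part in the Elavl4 values was not tested.

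MBNL1 from a plasmid shifted no member past the threshold against the same siRNA with pcDNA. With siFmr1, nMBNL1 in place of pcDNA left Elavl4 at 5111, 5333 and 5208, overlapping with pcDNA, and Tia1 at 1871, 2001 and 2067. Elavl3 was 5031, 4365 and 4255 with nMBNL1 against 5528, 5407 and 5274 with pcDNA, without overlap, but the difference missed the threshold (-0.25 ± 0.11, adjusted p = 0.252). Limma called 0 of 6 members and 1.76% of all genes in this comparison. Of 16242 genes 2901 had an unadjusted p under 0.05, among them 1 member, Elavl3. With siMbnl1, cMBNL1 in place of pcDNA left Tia1 at 1313, 1105 and 1243 and Elavl4 at 2879, 2532 and 2941, while mean Mbnl1 was 19762 against 1485. Elavl2 was 3583, 4003 and 4149.9 with cMBNL1 and 4691, 4925 and 4341 with pcDNA, without overlap, again short of the threshold (-0.25 ± 0.10, adjusted p = 0.177). Limma called 0 of 6 members and 2.24% of all genes. Of 16242 genes 3149 were at an unadjusted p under 0.05, among them 1 member, Elavl2. Both passed without the second siNT sample (adjusted p = 0.0408 for Elavl3 and 0.0362 for Elavl2) and with only the groups compared in the fit (0.0109 and 0.0115), although siNT enters these comparisons only through the shared estimate of the spread.

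Against siNT, the groups with MBNL1 gave the same calls for Elavl4 and Tia1 as their pcDNA counterparts, with which they share those control samples. The log2 fold change of Elavl4 was 0.57 ± 0.08 with siFmr1 and nMBNL1 (adjusted p = 2.58e-05) and -0.34 ± 0.08 with siMbnl1 and cMBNL1 (adjusted p = 0.00275). The second of these missed the threshold with only the groups compared in the fit (adjusted p = 0.0528). Tia1 was -0.79 ± 0.08 with siMbnl1 and cMBNL1 (adjusted p = 4.23e-06). Elavl2 was called in addition with siFmr1 and nMBNL1 (0.33 ± 0.10, adjusted p = 0.0133), although its samples (4577, 5364 and 5548) overlapped with siNT, and that call was lost without replicate 3 of siNT (0.0718), without replicate 2 (0.0536) or replicate 3 (0.0642) of nMBNL1, and with only the groups compared (0.0864). In that comparison single siNT samples also decided other members: Elavl1 passed without replicate 1 (0.0382) or 3 (0.0392), Elavl3 without replicate 1 (0.00353) and Tial1 without replicate 2 (0.0182). Here 2 of 6 members were called in each comparison, beside 41.1% of all genes for nMBNL1 and 33.7% for cMBNL1.

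**Figure D3:**
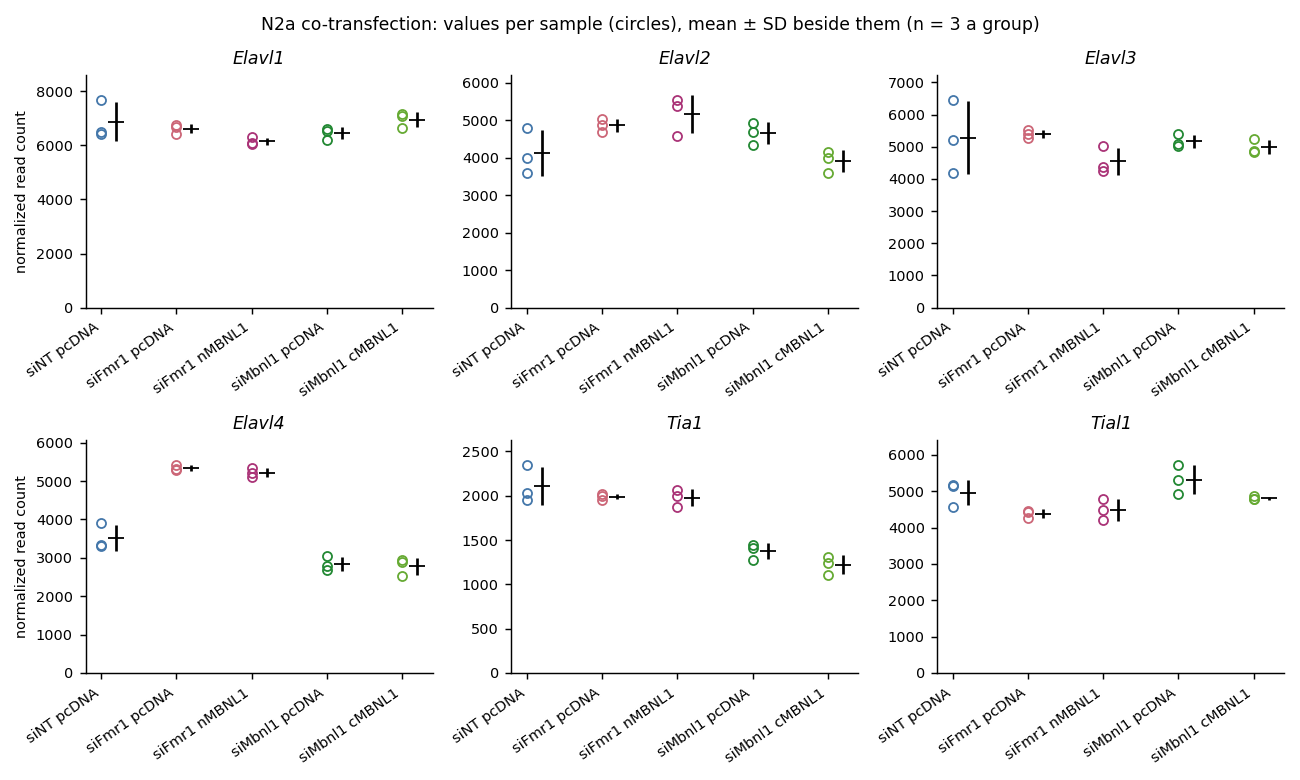
Normalized read count of each gene in every co-transfection sample (circles) with the mean ± SD of the 3 samples beside them, on axes that start at 0. All siFmr1 samples lie above and all siMbnl1 samples below the siNT samples for Elavl4, and the siMbnl1 samples are the lowest for Tia1.

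Skipped exons of the 6 genes were few. The 11 skipped-exon tables listed 27 different exons of the members in 188 events, an event being an exon with its 2 neighbours, and all 27 exons are annotated. Events were tested if each replicate set averaged 20 junction reads or more. The test was a quasi-binomial model, and events were called at an adjusted p under 0.05 with an inclusion difference of at least 0.1, inclusion being the fraction of transcripts that hold the exon as estimated from junction reads. The tables do not name their 2 replicate sets, so these are called first and second, and no direction by group is given. Taken over the tables, 38 forms of event had enough reads, and in 32 of them mean inclusion over the 2 sets was above 0.95 in each table. The exceptions were the short in-frame exons of Elavl2, Elavl4 and Tia1 shown above and a 124-base exon of Tia1, whose mean inclusion lay between 0.895 and 0.964.

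The Elavl2 39-base exon, joined to the later acceptor, changed between replicate sets in 2 co-transfection tables. In the first of these tables inclusion was 0.505, 0.468 and 0.459 in the first set and 0.344, 0.357 and 0.413 in the second. The sets did not overlap, the difference was 0.106, and the adjusted p was 0.039, in a table where 0.839% of events were called. In the second table the first set was at 0.616, 0.496 and 0.488, and the difference to the same second set was 0.162 (adjusted p = 0.00814, with 0.536% of events called). In the fourth table the first set was at 0.487, 0.42 and 0.511, and the difference of 0.101 to that second set missed the threshold (adjusted p = 0.0722, with 0.828% of events called), whereas the authors' deposited table gives an rMATS FDR of 0.0204. In the third table the sets were at 0.466, 0.447 and 0.45 and at 0.505, 0.468 and 0.459, a difference of -0.02 (adjusted p = 0.573, with 0.678% of events called). Mean reads per set were between 321 and 394.

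These comparisons share libraries. The second sets of the first, the second and the fourth co-transfection table had identical junction reads in 100% of shared events, and so had the first set of the first table and the second set of the third. The differences in those tables with a common second set therefore rest on the same 3 second-set libraries and are not independent. With the replicate in the same position left out of both sets, the exon was not called in the first table in any of 3 cases (adjusted p from 0.0712 to 0.251), and in the second table it was lost without replicate 1 (difference 0.106, adjusted p = 0.113). The same exon joined to the earlier acceptor gave 0.537, 0.504 and 0.487 against 0.321, 0.42 and 0.47 in the second table, a difference of 0.106 that was not called (adjusted p = 0.229). Without the 226-base exon before it, the exon joined to the later acceptor was at 0.98, 0.974 and 0.86 against 0.735, 0.847 and 1 in that table (adjusted p = 0.553).

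Joined to the later acceptor, the Elavl2 exon was included nearly throughout in the brain. It was at 1, 0.92 and 1 against 1, 1 and 1 in the cortex, which is described only, and at 1, 0.957 and 0.968 against 1, 1 and 1 in the hippocampus (adjusted p = 0.464). Joined to the earlier acceptor it was at 0.95, 1 and 1 against 1, 0.588 and 0.931 in the cortex, and at 0.784, 1 and 0.882 against 1, 0.879 and 0.958 in the hippocampus. In the first N2a experiment the exon joined to the later acceptor was at 0.832, 0.384 and 0.604 in the first set and 0.817 and 0.721 in the second, with an adjusted p of 0.52. One sample of the first set lay far below the rest there. In the testis, with mean reads of 7.7 and 4.7, it lay between 0 and 0.347, so levels there rest on few reads. The matching exon of Elavl3 was at 0.965 or above in each N2a replicate and at 0.922 or above in the cortex. The matching exon of Elavl4 was at 0.943 or above in N2a cells with the later acceptor, and between 0.75 and 0.933 in the cortex. The Elavl3 and Elavl4 copies share 34 and 33 of 39 bases with the Elavl2 copy.

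The Tia1 33-base exon was partly skipped in most samples. Its mean inclusion over the 2 sets was between 0.718 and 0.845 in the 7 tables with enough reads. In the cerebellum it was at 0.919, 0.686 and 0.928 in the first set and 0.563, 0.682 and 0.756 in the second, and the difference of 0.178 was not called (adjusted p = 0.452). In the first co-transfection table it was at 0.787, 0.831 and 0.941 against 0.873, 0.709 and 0.716 (difference 0.087, adjusted p = 0.259). The first replicates of the sets lay in the opposite order to the others. Without the first replicates the difference was 0.173 (adjusted p = 0.00249, quasi-binomial test). It was 0.069 without the second replicates (adjusted p = 0.397) and 0.018 without the third (adjusted p = 0.649), so the value depended on single replicates. In the testis, described only and below the minimum of 20 reads, it was at 0.523, 0.497 and 0.682 against 0.06, 0.397 and 0.314.

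Of Elavl1, Elavl3, Elavl4, Tia1 and Tial1 no skipped exon was called with all replicates in the test. Over the 9 tables tested, called events of the members numbered 1 of 29 in the first co-transfection table, 1 of 31 in the second, 0 of 30 in the third and in the fourth, 0 of 26 in the first N2a experiment, 0 of 6 in the hippocampus, 0 of 4 in the cerebellum, 0 of 2 in muscle and 0 of 1 in liver. At an unadjusted p under 0.05 there were 2 member events in the third co-transfection table, 3 in the fourth, 1 in muscle and 0 in the other 4 tables without a call, and by the rMATS FDR in the authors' deposited table, the fourth held 1 call and the other tables without a call held 0. Among all events, the quasi-binomial test called 0% in the hippocampus, the cerebellum and the first N2a experiment, 0.13% in liver and 0.3% in muscle. Shares of all events at an unadjusted p under 0.05 or by the rMATS FDR are not given here. Nothing is read from the member counts at those thresholds.

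**Figure D4:**
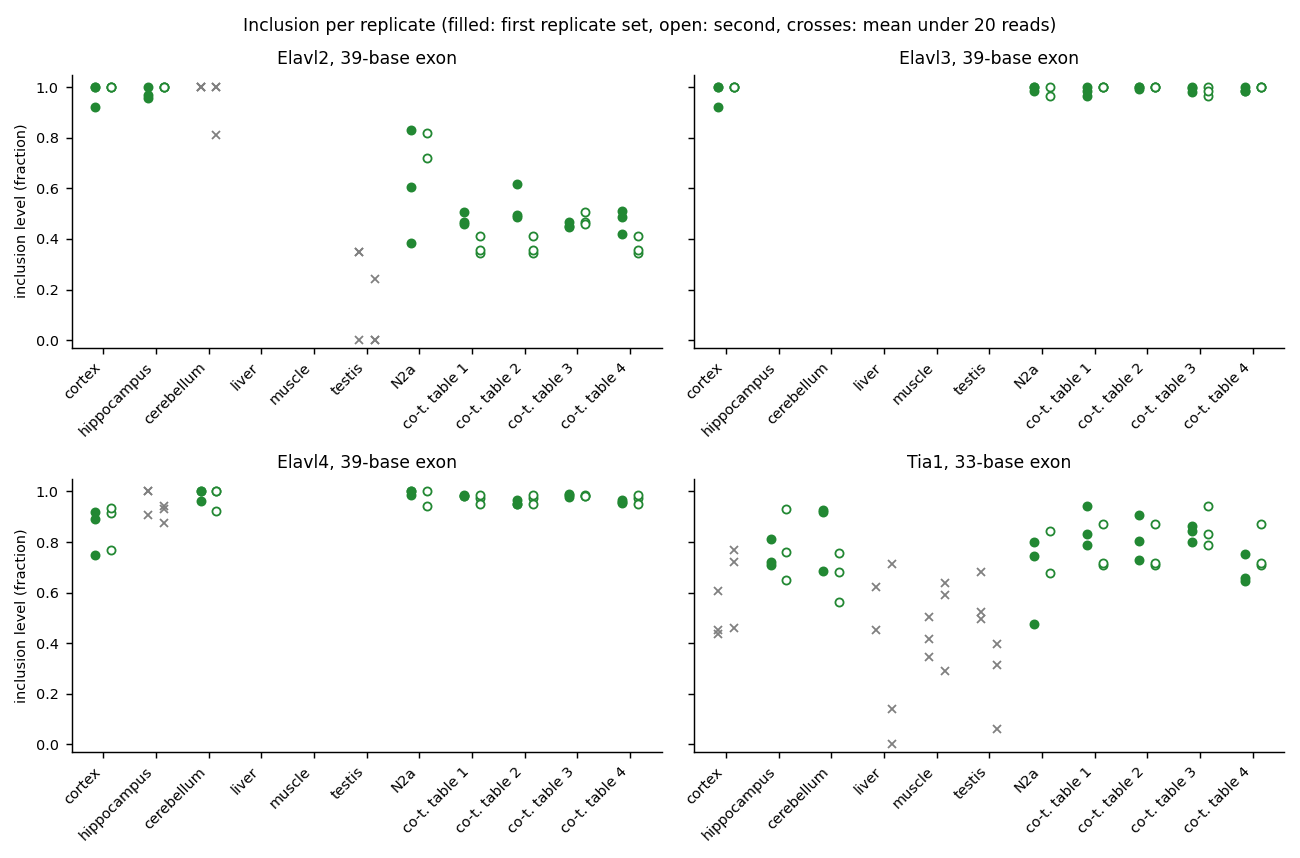
Inclusion (fraction) of the 39-base exons of Elavl2, Elavl3 and Elavl4 and the 33-base exon of Tia1 in each replicate of the 11 skipped-exon tables, with the first replicate set filled, the second open and events under 20 mean reads as grey crosses. Plotted for the form that joins the 226-base exon to the later acceptor, the Elavl2 exon lies between 0.344 and 0.616 in the co-transfection tables and at 0.92 or above in cortex and hippocampus, while the Elavl3 and Elavl4 exons stay near 1 in N2a cells.

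Genes that work with the members or that are reported as their targets were counted from 5 lists of 49 genes. In the hippocampus, cerebellum, liver and first N2a experiment edgeR called 0 of them. In muscle, 4 of 45 were called, or 8.89%, beside 4.04% of all genes, and with the replicate block 0 were called. Fos (-4.15 ± 0.76, adjusted p = 0.0262), an immediate early gene with a classic AU-rich element, fell, and the cyclin Ccnd1 (0.74 ± 0.15, adjusted p = 0.0323), the mRNA decay factor Zfp36l2 (0.70 ± 0.12, adjusted p = 0.0234) and Marcks (0.53 ± 0.10, adjusted p = 0.0293) rose. In the co-transfection experiment 20 of 49 were called for siFmr1 against siNT and 21 of 49 for siMbnl1 against siNT, or 40.8% and 42.9%, beside 37.0% and 32.8% of all genes.

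Of all genes, 19.5% were called higher and 17.5% lower with siFmr1, and 17% higher and 15.8% lower with siMbnl1, and each list holds only 3 to 14 genes. Among reported targets of neuronal ELAV-like proteins, 4 of 10 rose and 1 fell with siFmr1, with a median log2 fold change of 0.27 against 0.03 over all genes. Mapt, which encodes the microtubule-binding protein tau, rose by 0.80 ± 0.10 (adjusted p = 2.6e-05), and Nova1, a neuronal splicing factor, fell (-0.89 ± 0.09, adjusted p = 3.15e-06). With siMbnl1, 1 rose and 3 fell, with a median of -0.04 against 0.01 over all genes, and Ache, encoding acetylcholinesterase, fell (-0.97 ± 0.21, adjusted p = 0.002). Among reported targets of Elavl1 or the TIA proteins, 3 of 14 rose and 4 fell with siFmr1, and 6 rose and 2 fell with siMbnl1, with medians of 0.00 and 0.14. Myc rose by 1.21 ± 0.08 with siMbnl1 (adjusted p = 7.19e-08), and Xiap, an inhibitor of apoptosis, fell with siFmr1 (-0.63 ± 0.10, adjusted p = 0.000121). Of the genes listed under binding of AU-rich elements and mRNA decay, not all of which do both, 1 of 10 rose and 1 fell with siFmr1. With siMbnl1, 4 rose and 0 fell. Zfp36, which encodes tristetraprolin, fell with siFmr1 (-0.61 ± 0.13, adjusted p = 0.00135), and Zfp36l2 rose with siMbnl1 (0.41 ± 0.09, adjusted p = 0.00307). Of the stress granule genes, 1 of 12 rose and 3 fell with siFmr1, and 0 rose and 4 fell with siMbnl1, with medians of -0.07 and -0.10. Of the 3 protein genes of the U1 snRNP, Snrnp70 rose with siFmr1 (0.41 ± 0.08, adjusted p = 0.000797) and with siMbnl1 (0.35 ± 0.08, adjusted p = 0.00286), and Snrpa fell with siFmr1 (-0.35 ± 0.12, adjusted p = 0.0296). Both comparisons share the siNT samples.

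Within the brain the members did not vary as one group. Over the 18 brain samples, which share a table and differ mostly by region, Elavl2 and Elavl3 ran in opposite directions (Pearson r = -0.98 of log2 CPM), Elavl2 and Tial1 likewise (-0.85), and Tia1 and Tial1 together (0.732). Among 11562 genes, the pattern closest to Elavl3 was that of Grin2c (r = 0.994), to Elavl2 that of A830018L16Rik (0.997), to Elavl4 that of Negr1 (0.977), to Tial1 that of U2surp (0.988), to Tia1 that of Zmym6 (0.917) and to Elavl1 that of Mapk1ip1l (0.887). Over the 15 co-transfection samples Elavl4 was at 0.77 with Tia1 and -0.769 with Tial1, and the closest patterns among 14224 genes were Cnr1 for Elavl4 (0.990) and Phtf1 for Tia1 (0.971). These values describe samples that share groups and libraries.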

How the data were processed

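RNA sequencing of 56 mouse samples was analysed from the authors' processed tables. Per the submitters' processing notes, the tools named were FastQC 0.11.8, Trimmomatic 0.39, Bowtie2 2.3.5, STAR 2.6.1, RSEM 1.3.1 and DESeq2 1.16.1, with the build GRCm38 (mm10). Per the labels, brain libraries were poly(A)-selected with a NEXTflex directional kit and the co-transfection ones used NEBNext Ultra II directional.

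The deposited gene tables hold read counts and TPM for the brain, liver, muscle, testis and first N2a experiment, and, for the co-transfection experiment, a normalized read signal whose scaling is not given in the sources used here. The deposited rMATS tables hold junction reads, a difference of inclusion between their replicate sets (a score from -1 to 1) and FDR-adjusted p-values. Inclusion per replicate was recomputed from the junction reads. The 4 columns of samples that the labels did not match were not used, and 4 rows of repeated gene names were dropped.

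The 6 genes and the gene lists were chosen with earlier results of these data known. Counts were tested with edgeR 4.0.16 (quasi-likelihood, TMM scaling, R 4.3.3), the normalized values with limma 3.58.1 (trend, log2(value + 1), mean of at least 1, all 15 samples), and exons with a quasi-binomial model on junction reads (a mean of 20 or more in each replicate set). P-values were adjusted by Benjamini-Hochberg over all features of a table, and calls needed an adjusted p under 0.05. The edgeR, limma and quasi-binomial fits were tested on simulated data. DESeq2 1.42.0, other filters, scalings and pseudocounts, a replicate block, and leaving out single samples were tried as alternatives. The text names the 6 genes in every table, up to 4 called genes per list with the largest change, and exons called in any table. Same-numbered samples did not pair, except siMbnl1 with cMBNL1 and with pcDNA, where all 3 correlations of deviations exceeded 0.1 (0.157 to 0.384). Tables were normalized separately, and no test crosses them. The order of levels between genes was planned on counts per length of all annotated exons and is given on the deposited TPM, with the differences between them stated.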

Additional observations from a re-analysis of the deposited data

Results flagged for a closer look

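Tial1, a relative of TIA1 that acts in splicing and in stress granules, had samples that did not overlap in 3 comparisons of lost FMRP with control, with differing signs. Those considered were KO against WT and siFmr1 against siNT, alone or with pcDNA, on the values used for the fits. Its log2 fold change was 0.12 in KO over WT hippocampus, with all 3 KO samples higher (adjusted p = 0.275, edgeR), and -0.18 for siFmr1 over siNT with pcDNA in N2a cells, with all 3 siFmr1 samples lower (adjusted p = 0.0624, limma). It was 0.30 in KO over WT cortex, again with all KO samples higher, but that value is one by which the group was chosen and supports nothing. The hippocampus and co-transfection values did not pass their tests, and the cortex value was not tested. The difference between the brain and N2a values was not tested, since their tables were normalized separately. In the first N2a experiment the log2 fold change of Tial1 for siFmr1 over siNT was 0.16, and in KO over WT cerebellum it was 0.06, both with overlapping samples. Of all genes, 9.9% in the hippocampus and 13.2% in the cortex were higher without overlap, and 20.3% were lower without overlap in the co-transfection comparison.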

How the results depend on the processing

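The alternatives for the lists were chosen after seeing the data. No called log2 fold change of a member reversed under any alternative run. Of the alternatives for called members, 312 kept the call and 19 lost it, and the cause was not tested. DESeq2 called 1 member in the hippocampus, and on the lists 1 gene in the hippocampus, 1 in the cerebellum, 3 in liver and 8 in muscle. A minimum log2 change of 1 left 0 members in each co-transfection comparison that had calls, and list counts of 1 for siMbnl1 pcDNA against siNT and for siFmr1 against siMbnl1, and 0 in the others. Fitting only the groups compared gave 1 member for siMbnl1 pcDNA, siFmr1 nMBNL1 and siMbnl1 cMBNL1 against siNT and for each plasmid comparison, and list counts of 11 (siFmr1 pcDNA), 9 (siMbnl1 pcDNA) and 9 (siFmr1 nMBNL1) against siNT, 17 and 16 for the nMBNL1 and cMBNL1 plasmid comparisons, and 30 for siFmr1 against siMbnl1. A pseudocount of 10 gave 1 list gene for cMBNL1 against its pcDNA group. With the replicate block, 0 members were called in each tested tissue and in the first N2a experiment, 5 for WT cerebellum against cortex, and 0 list genes in muscle. The deposited rMATS FDR called 1 member exon in the fourth co-transfection table.

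Leaving out single samples gave 1 to 3 members for siFmr1 pcDNA, 2 to 3 for siMbnl1 pcDNA and 1 to 4 for siFmr1 nMBNL1 against siNT, 0 to 1 for each plasmid comparison, 1 to 2 for hippocampus against cortex, 4 to 5 for cerebellum against cortex, 3 to 4 members higher in KO cortex and in KO testis, and 0 to 1 exons in the first and in the second co-transfection table. List counts ran from 0 to 6 in liver, 0 to 7 in muscle, 0 to 1 in cerebellum, 13 to 24, 26 to 29 and 28 to 37 for the region comparisons, 14 to 25, 15 to 22, 15 to 24 and 17 to 30 against siNT, 1 to 9 and 0 to 7 for the plasmids, and 16 to 25 for siFmr1 against siMbnl1. The log2 fold change of Tia1 in cortex was 0.39 without WT replicate 2, and that of Elavl2 in testis -0.05 without KO replicate 1. Where a siNT sample of the first N2a experiment was left out, the remaining one was assumed to vary like the other group. Testis Elavl3 rests on at most 97 reads per sample, which limits its precision.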
